A study of Homo sapiens with 12 samples.

Results

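The mitochondrial ribosomal protein genes encode the protein subunits of the ribosome inside mitochondria. They were taken here by name, as every gene symbol in the count table that reads MRPL or MRPS followed by a number and, in a few cases, a letter from A to D. This gave 77 genes of the 26485 symbols in the table, 48 with MRPL symbols for the large subunit and 29 with MRPS symbols for the small subunit. A filter on low counts kept 76 of the 77 for testing. MRPS24 did not pass it, with 0 to 5 reads in each of the 12 libraries. Its transcript shares 85.7% of its length with the read-through gene URGCP-MRPS24, which is listed at 0 throughout, and it is not described further.

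The mitochondrial ribosome translates the few messages of mitochondrial DNA, all of which encode membrane subunits of the respiratory chain and the ATP synthase. Its RNA is made inside the organelle, but all of its proteins are made from nuclear genes in the cytosol and imported, so that 2 genomes have to supply 1 particle. The large subunit forms peptide bonds and holds the exit tunnel, and the small subunit binds the message and reads the codons. Some of the proteins have counterparts in the bacterial ribosome, and others were added in mitochondria. Skeletal muscle depends on this ribosome for its oxidative capacity.

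RNA came from RD cells, an established human line of fusion-negative rhabdomyosarcoma, a tumour with features of embryonic skeletal muscle. All cells carried a doxycycline-inducible short hairpin against NT5E, the gene of the cell-surface enzyme CD73, in a construct titled ish or ish2. Each construct was cultured for 96 h in medium without doxycycline or with 10 ng/mL of it (Dox), giving 3 libraries in each of the 4 groups and 26566603 to 32692207 gene counts in each library. The labels do not say that the replicates are separate cultures or whether a line is a clone, so p-values measure the spread between libraries, which may be technical. Doxycycline is a tetracycline, a class of antibiotic that binds the bacterial ribosome and at higher doses slows mitochondrial translation. No library analysed here had Dox without an NT5E hairpin, so the drug, the hairpin and the loss of NT5E cannot be told apart.

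NT5E counted 14.9, 18 and 17.3 CPM in the ish libraries without Dox and 1.94, 1.23 and 1.54 CPM with Dox, where CPM is the read count scaled by library size. In ish2 it counted 24.1, 23.5 and 22.1 CPM without Dox and 14.5, 15.2 and 14.1 CPM with Dox. The groups did not overlap in either construct, and the fall was 10.7-fold in ish and 1.59-fold in ish2 (edgeR adjusted p = 3.31e-25 and 4.62e-11). An exact two-sided permutation test gave p = 0.1 in each, the smallest that 3 against 3 libraries can give. Of 8 skeletal muscle lineage markers, 7 were tested, and 5 rose and 2 fell with Dox in ish. Their summed level went from 1970 to 2080 CPM without Dox to 3120 to 3330 CPM with Dox, led by MYOG and MYH3, 2 genes of muscle differentiation. In ish2 the sum was 2100 to 2130 CPM without Dox and 2070 to 2110 CPM with it, but single markers moved, 2 higher and 3 lower of 7. MYOG fell from 82.9 to 17.6 CPM on average and MYH3 from 56.9 to 24.6 CPM there, FGFR4 fell 1.56-fold and DES rose 1.57-fold, while CHRNA1, at 1140 and 1150 CPM, made up much of the sum. MYF5 was at or near 0 in every group, and the blood-cell markers summed to at most 1.37 CPM. The endothelial markers, nearly all TEK, summed to 9.44 to 10 CPM without Dox and 2.09 to 2.92 CPM with Dox in ish, and to 10.7 to 11.2 and 10.3 to 10.9 CPM in ish2; PECAM1, CDH5 and KDR were at or near 0. The epithelial markers, nearly all KRT18, summed to 31.9 to 33.7 CPM without Dox and 6.79 to 8.67 CPM with Dox in ish, and to 37.6 to 42.4 and 60.2 to 61.2 CPM in ish2. The part of these marker changes in the ribosomal protein results was not tested.

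Before any Dox, the levels of the subunit mRNAs differed widely although each protein is thought to be present once or in a few copies per ribosome. To compare genes, each mean CPM over the 6 libraries without Dox was divided by the length of the gene's reference transcript in kilobases. This level ran from 5.54 CPM per kb for MRPS23 to 103 CPM per kb for MRPL51, an 18.6-fold range, with a median of 36.9. The medians of the large and small subunit symbols lay close together, at 37.4 and 35.8 CPM per kb. The middle 50% of genes spanned 21.0 to 51.5 CPM per kb, a 2.46-fold range.

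The highest levels per length were those of MRPL51, MRPL37 and MRPL12, at 103, 98.3 and 89.5 CPM per kb. MRPS7, a small subunit protein with a bacterial counterpart in the head of that subunit, followed at 81.7, and MRPL3, which lies near the site of peptide bond formation, at 81.5 CPM per kb. MRPL12 is a flexible stalk protein that recruits translation factors, and 68.2% of its transcript length is shared with another annotated gene on the same strand. MRPL3 and MRPS7 did not differ beyond their spread, at 79.4 ± 0.317 and 78.9 ± 1.46 CPM per kb in ish (SD, n = 3). The genes above them stood further apart in ish, with MRPL51 at 104 ± 1.14, MRPL37 at 94.1 ± 0.109 and MRPL12 at 87.1 ± 1.41. In ish2, MRPL51 at 103 ± 1.2 and MRPL37 at 103 ± 3.39 lay within their spread, and MRPL12 was at 91.9 ± 2.62. At the low end stood MRPS11 at 9.16, MRPL23 at 6.13, MRPL42 at 5.86, MRPS18C at 5.71 and MRPS23 at 5.54 CPM per kb. The order rests on which transcript is taken. MRPL42 counted 91.2 to 91.4 CPM on average per group without Dox, above most members, but its reference transcript is 15582 bases long. With the total length of all annotated exons in place of the reference transcript, MRPS7 went from rank 4 to rank 28.

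**Figure D1:**
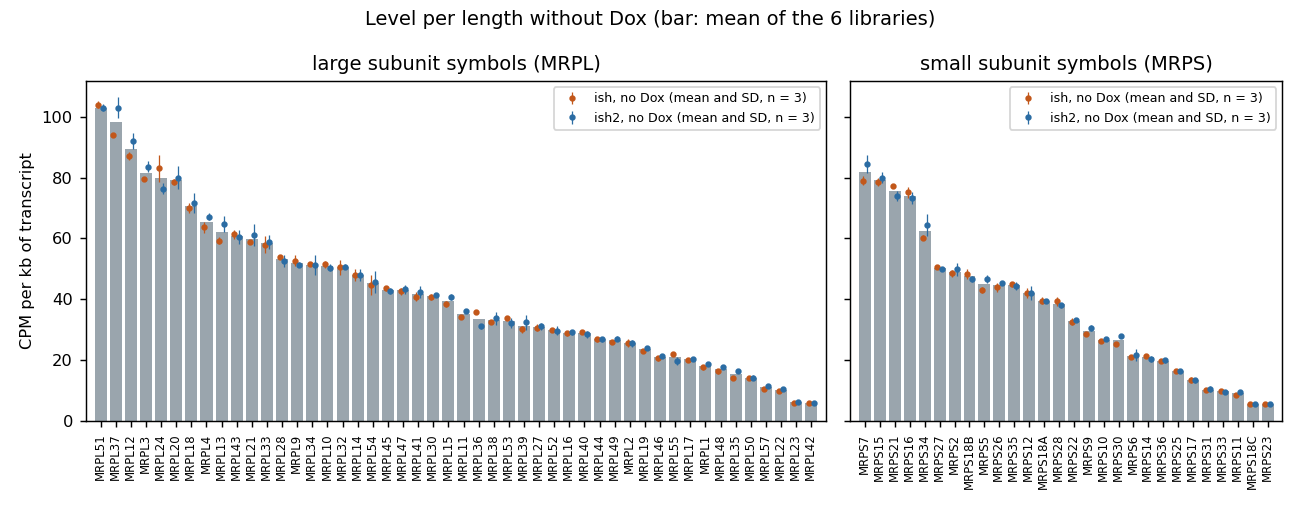
Level of each tested mitochondrial ribosomal protein mRNA without Dox, in CPM per kilobase of reference transcript, ordered from highest to lowest within the large subunit symbols (left) and the small subunit symbols (right). Bars are means of 6 libraries and points are means with SD of the 3 libraries of each construct; levels run from 103 for MRPL51 to 5.54 for MRPS23, and the points of both constructs lie close to each other for nearly all genes.

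With Dox in ish, most of these mRNAs rose, each by a small amount. Of the 76 tested genes, 44 rose (57.9%) and 15 fell (19.7%) at an edgeR adjusted p under 0.05, against 39.1% higher and 39.5% lower of all 15206 genes tested. The median log2 fold change was 0.16, against -0.01 for all genes. No member changed 2-fold, and 72 of 76 lay within 1.5-fold. The libraries of the groups did not overlap in 63 of the 76 (82.9%), near the 80.6% of all genes tested. Summed over all members, the level was 4382 to 4405 CPM without Dox and 4816 to 4841 CPM with it, so the groups were apart. CPM is a share of the library, so these values do not say whether the cell held more of these messages in all, and in bulk RNA fewer cells of a type and less RNA per cell cannot be told apart.

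The largest rise in ish was that of MRPS6, a small subunit protein with a bacterial counterpart, on chromosome 21 of GRCh38 (34073224 to 34143034). It counted 20, 21.2 and 21 CPM without Dox and 37.2, 34.3 and 34.9 CPM with Dox (log2 fold change 0.78, SE 0.05, edgeR adjusted p = 3.04e-16). All 3 Dox libraries stood well above the others. SLC5A3, a myo-inositol transporter gene that shares exons with MRPS6 over part of the 31.9% of shared transcript length, went the other way, from 32.6 ± 1.34 to 26.2 ± 0.589 CPM (SD, n = 3).

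MRPL41, a large subunit protein added in mitochondria, was next. Its libraries counted 53.6, 50.4 and 50.6 CPM without Dox and 83.7, 87.8 and 88.0 CPM with Dox (log2 fold change 0.75, SE 0.04, edgeR adjusted p = 3.79e-17). MRPL27, whose bacterial counterpart reaches into the site of peptide bond formation, counted 21.6, 22.9 and 21.4 CPM without Dox and 35.8, 35.0 and 35.2 CPM with Dox (log2 fold change 0.69, SE 0.05, edgeR adjusted p = 3.63e-16). Neither gene had overlapping groups. The gene of MRPL41 lies on chromosome 9 (137551199 to 137552555) and that of MRPL27 on chromosome 17 (50367857 to 50373214).

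The other members among the 8 largest rises were MRPS36 (log2 fold change 0.54), MRPL44 (0.53), MRPL46 (0.52), MRPL54 (0.49) and MRPL33 (0.49). MRPL44, a large subunit protein related to RNase III and known from inherited cardiomyopathy, went from 46.8 ± 1.59 to 67.7 ± 2.35 CPM (SD, n = 3). MRPL46 shares 70.8% of its transcript length with another annotated gene on the same strand. MRPS36 bears a ribosomal name but is now known as a subunit of the 2-oxoglutarate dehydrogenase complex of the citric acid cycle, and it went from 25.2 ± 0.377 to 36.7 ± 0.332 CPM.

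The largest fall in ish was that of MRPS28, a small subunit protein. Its libraries counted 33.7, 32.0 and 34.4 CPM without Dox and 17.6, 16.9 and 18 CPM with Dox (log2 fold change -0.93, SE 0.05, edgeR adjusted p = 2.88e-19). The Dox libraries stood 1.91-fold lower on average and were far from the others. Another annotated gene on the same strand covers 55.4% of the MRPS28 transcript length, so the count may hold reads of both. MRPS27, a pentatricopeptide repeat protein of the small subunit, is among the members with the highest CPM, though it ranks 23 per length. It counted 143, 140 and 140 CPM without Dox and 100, 102 and 99.0 CPM with Dox (log2 fold change -0.49, SE 0.03, edgeR adjusted p = 4.71e-18). These groups were also apart. MRPS27 lies on chromosome 5 (72219409 to 72320646).

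The next falls were those of MRPL11 (log2 fold change -0.42), which forms the base of the stalk, MRPL40 (-0.37), whose gene lies in the region of chromosome 22 deleted in DiGeorge syndrome, and MRPL35 (-0.36). MRPL11 went from 55.1 ± 0.744 to 41.1 ± 1.55 CPM and MRPL40 from 40.5 ± 0.421 to 31.3 ± 0.29 CPM (SD, n = 3). MRPL30, MRPS17 and MRPL20, all with bacterial counterparts, had log2 fold changes of -0.31, -0.30 and -0.22 in ish. In the sum over genes, the largest gains were those of MRPS21 (39.0 CPM) and MRPL41 (35.0 CPM), and the largest loss was that of MRPS27 (a change of -41.0 CPM).

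In ish2, rises and falls were closer in number and smaller. With Dox 28 members rose (36.8%) and 21 fell (27.6%) by the edgeR call, against 33.9% higher and 31.1% lower of all genes tested. The median log2 fold change was 0.02, against 0.01 for all genes, and with upper-quartile scaling the member median was -0.002. All but 1 of the 76, MRPS7, lay within 1.5-fold, and the groups did not overlap in 45 (59.2%), against 66.6% of all genes tested. Summed over all members, the level was 4400 to 4512 CPM without Dox and 4385 to 4564 CPM with Dox, which overlapped.

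MRPS7 had the largest change in ish2. This early-assembling protein of the small subunit head counted 114, 119 and 123 CPM without Dox and 71.4, 71.1 and 69.8 CPM with Dox (log2 fold change -0.75, SE 0.03, edgeR adjusted p = 1.92e-21). The same gene in ish counted 113, 109 and 111 CPM without Dox and 123, 125 and 124 CPM with Dox (log2 fold change 0.16, edgeR adjusted p = 6.68e-06). The groups did not overlap in either construct, and the direction was opposite. MRPS7 lies on chromosome 17 (75261674 to 75266373), where 19.7% of its transcript length is shared with GGA3 and MIF4GD on the other strand. Neither neighbour moved with it in ish2: GGA3 had a log2 fold change of 0.00 and MIF4GD of 0.34.

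MRPL34, a short large subunit protein with a bacterial counterpart, counted 47.0, 53.2 and 48.5 CPM in ish2 without Dox and 33.2, 34.3 and 33.0 CPM with Dox (log2 fold change -0.56, SE 0.04, edgeR adjusted p = 1.46e-13). MRPS26, a small subunit protein added in mitochondria, counted 51.0, 51.1 and 51.8 CPM without Dox and 36.3, 35.8 and 34.1 CPM with Dox (log2 fold change -0.54, SE 0.04, edgeR adjusted p = 1.74e-14). Both genes had Dox libraries clearly below the others in ish2. In ish, MRPL34 rose by 0.13 on the log2 scale and MRPS26 had a value of 0.06 that did not pass the test (edgeR adjusted p = 0.159). MRPS27 fell in ish2 as it did in ish, from 139, 139 and 138 CPM to 98.9, 99.9 and 104 CPM (log2 fold change -0.46, edgeR adjusted p = 1.48e-16). The other large falls in ish2 were those of MRPL27 (-0.43), MRPS25 (-0.31), MRPS28 (-0.31) and MRPS6 (-0.30).

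The rises in ish2 were led by MRPS23, a small subunit protein added in mitochondria, on chromosome 17 (57834781 to 57850056). Its libraries counted 30.7, 30.5 and 31.2 CPM without Dox and 39.0, 40.5 and 39.6 CPM with Dox (log2 fold change 0.37, SE 0.04, edgeR adjusted p = 3.88e-09). The groups were apart in ish2, whereas in ish the 3 libraries without Dox (30, 31.6 and 32.9 CPM) overlapped those with Dox (31.3, 29.9 and 29 CPM). MRPS30 counted 45.9, 48.2 and 46.6 CPM without Dox and 59.6, 63.2 and 58.0 CPM with Dox in ish2 (log2 fold change 0.36, edgeR adjusted p = 2.43e-10). Despite its symbol, MRPS30 is a protein of the large subunit. It rose in ish too, by 0.24 on the log2 scale. MRPL3 rose by 0.29 in ish2, from 143 ± 3.06 to 174 ± 4.64 CPM, and had a value of 0.05 in ish that did not pass the test. The rest of the 8 largest rises in ish2 were those of MRPL33 (0.31), MRPL18 (0.30), MRPL50 (0.29), MRPS17 (0.24) and MRPL21 (0.24).

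**Figure D2:**
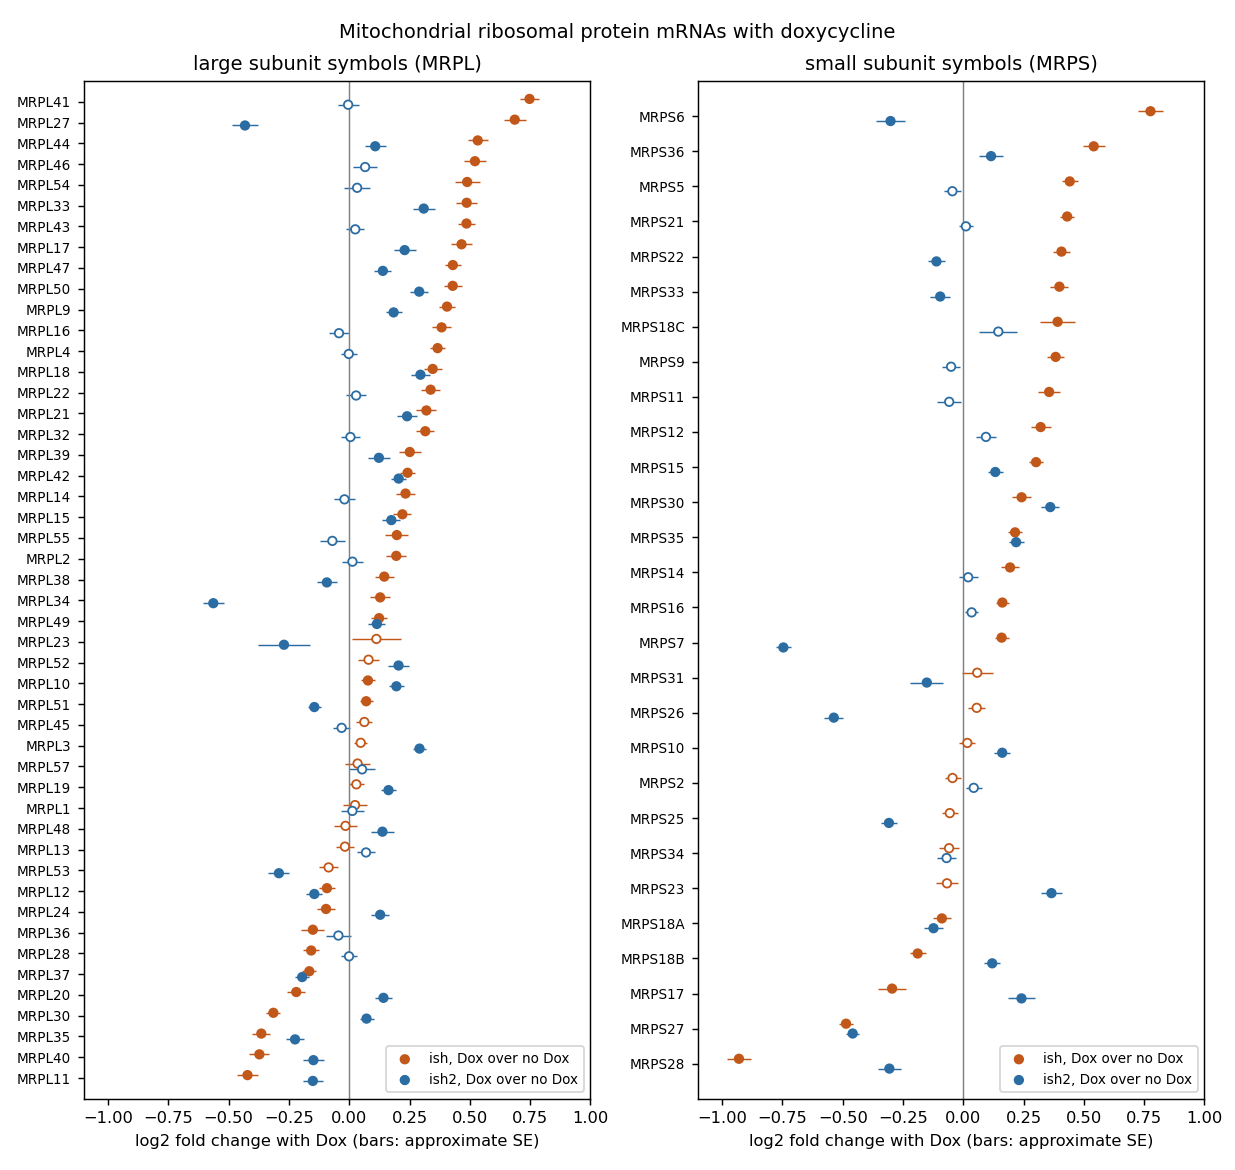
Log2 fold change with Dox of each tested mitochondrial ribosomal protein mRNA in ish (orange) and ish2 (blue), with the approximate SE as a bar; large subunit symbols are on the left and small subunit symbols on the right, each ordered by the ish value. Filled points passed the edgeR test at an adjusted p of 0.05 and open points did not; the ish values run from 0.78 (MRPS6) to -0.93 (MRPS28) and the ish2 values from 0.37 (MRPS23) to -0.75 (MRPS7) with little common order.

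The Dox effect in ish2 was above that in ish for 17 members (22.4%) and below it for 40 (52.6%) by the edgeR test of the difference, against 37.4% and 35.2% of all genes tested. The share called different in either direction, 75% of members, was near the 72.6% of all genes. The median difference was -0.15 on the log2 scale, against 0.01 for all genes. Across the 76 genes, the fold changes in ish and ish2 had a Pearson r of 0.203 and a Spearman rho of 0.196, given as a description, since genes of the same 12 libraries are not independent. Of 38 members called in both constructs, 25 had the same direction (32.9% of the 76, against 27.9% of all genes tested) and 13 the opposite (17.1%, against 26.1%). The constructs differ in the depth of the NT5E knockdown and in the movement of the muscle markers, and the part of either in these differences was not tested.

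Higher in both constructs were 17 members (22.4%, against 13.8% of all genes tested), 13 of them MRPL genes: MRPL9, MRPL10, MRPL15, MRPL17, MRPL18, MRPL21, MRPL33, MRPL39, MRPL42, MRPL44, MRPL47, MRPL49, MRPL50, MRPS15, MRPS30, MRPS35 and MRPS36. MRPL33 counted 29.2, 31.7 and 29.2 CPM without Dox and 41.4, 41.2 and 43.7 CPM with Dox in ish, and 31.1, 29.2 and 31.2 against 38.8, 38.1 and 36.5 CPM in ish2. The ish2 calls of MRPL44 and MRPS36 were lost under 14 and 15 of 19 alternative settings. Lower in both were 8 members (10.5%, against 14.1%): MRPL11, MRPL12, MRPL35, MRPL37, MRPL40, MRPS18A, MRPS27 and MRPS28. The fall of MRPS27 was -0.49 in ish and -0.46 in ish2, a difference of 0.03 that did not pass the test (SE 0.04, edgeR adjusted p = 0.543). The 6 members MRPL1, MRPL13, MRPL45, MRPL57, MRPS2 and MRPS34 passed the test in neither construct (7.89%, against 10.5% of all genes tested).

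In opposite directions, 8 members (10.5%, against 12% of all genes tested) rose in ish and fell in ish2: MRPL27, MRPL34, MRPL38, MRPL51, MRPS6, MRPS7, MRPS22 and MRPS33. MRPL27 had the largest difference of all members (-1.12, SE 0.07, edgeR adjusted p = 1.13e-16). In ish2 it counted 22, 21.7 and 23.2 CPM without Dox and 17.1, 15.8 and 16.6 CPM with Dox, below the range without Dox, where the ish libraries had gone above it. MRPS6 followed with a difference of -1.08 and MRPS7 with -0.91. MRPS6 counted 20.9, 19.8 and 23.7 CPM in ish2 without Dox and 17.3, 17.5 and 17.4 CPM with Dox, and SLC5A3 had a log2 fold change of -0.40 there. MRPS22, a small subunit protein added in mitochondria, counted 50.4, 49.2 and 52.3 CPM without Dox and 67.2, 67.0 and 67.2 CPM with Dox in ish. In ish2 it counted 51.3, 52.3 and 50.6 CPM without Dox and 47.8, 47.4 and 47.5 CPM with Dox. The groups were apart in both constructs, and the difference was -0.52 (SE 0.05, edgeR adjusted p = 1.05e-11). The ish2 calls of MRPL38 and MRPS33 were lost under 4 and 3 of 19 alternative settings, and the ish call of MRPL51 under 3.

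The reverse, a fall in ish and a rise in ish2, was seen in 5 members (6.58%, against 14.1% of all genes tested): MRPL20, MRPL24, MRPL30, MRPS17 and MRPS18B. MRPS17 had the largest difference of these (0.54, SE 0.08, edgeR adjusted p = 7.43e-07). It counted 22.7, 26 and 25.9 CPM without Dox and 20.8, 19.9 and 20.1 CPM with Dox in ish, and 24.9, 23.1 and 26.2 against 31.7, 27.4 and 28.5 CPM in ish2. Each Dox group lay outside its control group, below it in ish and above it in ish2. MRPS28 had the largest positive difference of all members (0.62), since it fell in both constructs but less in ish2. MRPL24, a protein of the exit tunnel rim, had log2 fold changes of -0.10 and 0.13, and MRPL20, which binds ribosomal RNA early in assembly, of -0.22 and 0.14. The ish2 call of MRPL30 (0.07) was lost under 15 of 19 settings, and the ish call of MRPL24 under 3.

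**Figure D3:**
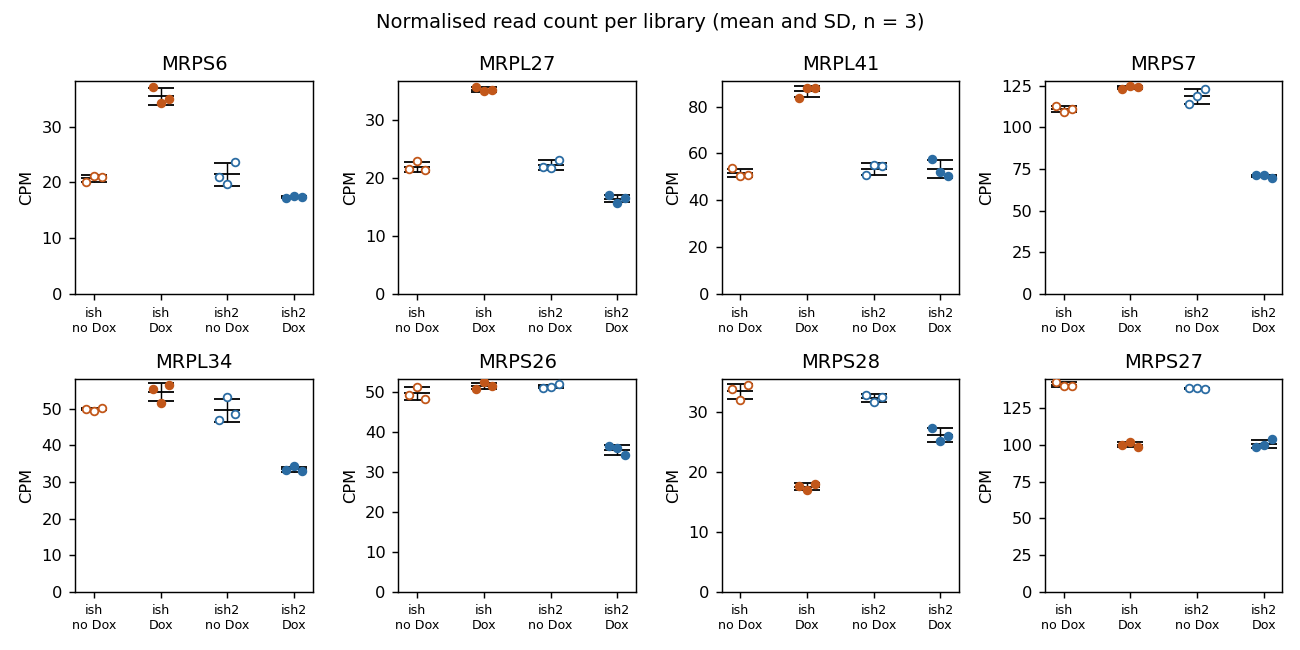
CPM of 8 mitochondrial ribosomal protein mRNAs in each of the 12 libraries (points), with mean and SD of 3 libraries per group; each vertical axis starts at 0. MRPS6 and MRPL27 go up in ish and down in ish2, MRPL41 goes up in ish with overlapping groups in ish2, MRPS7, MRPL34 and MRPS26 are far lower with Dox in ish2 than in any other group, and MRPS28 and MRPS27 are lower with Dox in both constructs.

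Promoters are shown for 5 members that stand for the joint patterns, chosen after their values were seen: MRPL27 and MRPS22 rose in ish and fell in ish2, MRPS18B did the reverse, MRPL17 rose in both and MRPL40 fell in both. Each sequence is the RefSeq promoter of GRCh38.p14, 300 bases from 250 before the start of the gene to 50 after it, read along the gene's strand. Capitals mark matches on either strand to any of 3 motifs found in promoters of nuclear genes for mitochondria or of 2 general ones: the NRF1 core GCATGCGC, the ETS core CCGGAAG, the YY1 core AAGATGGCG, the E-box CACGTG and the SP1 box GGGCGG. The windows are chr17:50373135-50373434 (minus strand), chr3:139343744-139344043 (plus), chr11:6683291-6683590 (minus), chr6:30617590-30617889 (plus) and chr22:19432295-19432594 (plus).
MRPL27: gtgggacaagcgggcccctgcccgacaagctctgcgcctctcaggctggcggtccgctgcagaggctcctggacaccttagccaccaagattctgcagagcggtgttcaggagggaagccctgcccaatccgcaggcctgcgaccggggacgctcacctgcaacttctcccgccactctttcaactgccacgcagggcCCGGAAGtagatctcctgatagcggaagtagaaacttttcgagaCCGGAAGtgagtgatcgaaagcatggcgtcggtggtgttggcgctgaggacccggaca
MRPS22: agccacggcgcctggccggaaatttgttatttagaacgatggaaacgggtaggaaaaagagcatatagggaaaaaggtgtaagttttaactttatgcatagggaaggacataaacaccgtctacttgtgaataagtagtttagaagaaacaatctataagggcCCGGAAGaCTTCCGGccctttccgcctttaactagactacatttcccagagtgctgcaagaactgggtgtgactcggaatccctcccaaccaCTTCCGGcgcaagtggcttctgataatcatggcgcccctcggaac
MRPL17: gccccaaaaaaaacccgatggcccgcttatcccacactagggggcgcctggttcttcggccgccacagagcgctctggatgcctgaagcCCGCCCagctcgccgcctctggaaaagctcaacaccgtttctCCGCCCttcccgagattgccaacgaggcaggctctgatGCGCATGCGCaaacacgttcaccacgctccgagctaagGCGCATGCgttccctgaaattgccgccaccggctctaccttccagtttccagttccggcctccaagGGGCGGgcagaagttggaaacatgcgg
MRPS18B: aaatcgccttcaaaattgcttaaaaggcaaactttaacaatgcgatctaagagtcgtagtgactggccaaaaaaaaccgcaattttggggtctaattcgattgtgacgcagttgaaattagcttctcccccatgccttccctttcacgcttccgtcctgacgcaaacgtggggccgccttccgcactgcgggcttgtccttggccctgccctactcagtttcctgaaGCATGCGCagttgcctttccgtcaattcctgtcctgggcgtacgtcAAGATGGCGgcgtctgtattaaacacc
MRPL40: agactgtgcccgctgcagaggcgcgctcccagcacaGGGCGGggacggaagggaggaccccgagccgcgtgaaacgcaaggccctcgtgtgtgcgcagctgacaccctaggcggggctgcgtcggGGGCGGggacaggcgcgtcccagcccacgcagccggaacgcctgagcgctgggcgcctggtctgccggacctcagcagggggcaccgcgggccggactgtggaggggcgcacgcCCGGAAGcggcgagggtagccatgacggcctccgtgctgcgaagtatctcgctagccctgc

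MRPL27 holds ETS cores at 52 and 8 bases before the start, and MRPS22 at 87 and 79 bases before it and once after it. Of the others that rose in ish and fell in ish2, MRPL38, MRPL51 and MRPS33 hold ETS cores, and MRPL34, MRPS6 and MRPS7 hold none. Of those that did the reverse, MRPL24, MRPS17 and MRPS18B hold none, and MRPL20 and MRPL30 hold ETS cores. MRPL40, which fell in both constructs, holds 1 at 11 bases before the start and 2 SP1 boxes. MRPL17 holds NRF1 cores at 81, 79 and 43 bases before the start, of which the first 2 overlap on opposite strands, and MRPS18B holds 1 at 23 bases before it and a YY1 core after it. Among the 68 members with a RefSeq promoter, 28 held the ETS core (41.2%), against 14.2% of the promoters of coding genes and 10.3% of all 35116 promoters. The YY1 core stood in 13 (19.1%, against 2.74% of coding and 1.75% of all promoters), and the NRF1 core in 6 (8.82%, against 4.26% and 3.05%). The E-box stood in 6 (8.82%, against 8.88% and 7.26%) and the SP1 box in 41 (60.3%, against 58.5% and 45.0%). Of these members' hits, 1 ETS core and 1 SP1 box overlapped another motif.

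In ish, members with and without each motif both held genes that rose and genes that fell. The same was true in ish2 except for the NRF1 core, with which 3 of 6 members rose and none fell. Of 28 tested members with the ETS core, 14 rose and 5 fell in ish (median log2 fold change 0.08), and of 39 without it, 25 rose and 8 fell (median 0.22). In ish2 the counts were 9 rising and 10 falling with the core, and 15 and 8 without it, with medians of 0.02 in each. With the YY1 core, 7 of 12 rose and 3 fell in ish and 6 rose and 2 fell in ish2. Among all genes tested, 39.1% rose and 39.5% fell in ish, and 33.9% rose and 31.1% fell in ish2. These groups are small, and no difference by motif was tested. A match is only a run of letters, and its absence from this window says nothing about the factor.

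The large and small subunits were compared by their symbols. In ish, 28 of 48 MRPL genes rose (58.3%) and 10 fell (20.8%), with a median of 0.14. Of 28 tested MRPS genes, 16 rose (57.1%) and 5 fell (17.9%), with a median of 0.18. Over all genes tested, 39.1% were higher and 39.5% lower in ish. In ish2, 20 MRPL genes rose (41.7%) and 11 fell (22.9%, median 0.03), and 8 MRPS genes rose (28.6%) and 10 fell (35.7%, median -0.02). The shares over all genes tested were 33.9% higher and 31.1% lower there. The median of the small subunit in ish2 was 0.035 without the members that share over 10% of their transcript length with another gene. The symbols were then placed by the position of the protein, with MRPS18A and MRPS30 in the large subunit and MRPS36 left out. Of 50 large subunit genes, 29 rose (58%) and 11 fell (22%) in ish, and 21 rose (42%) and 12 fell (24%) in ish2. Of 25 small subunit genes, 14 rose (56%) and 4 fell (16%) in ish, and 6 rose (24%) and 9 fell (36%) in ish2.

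Summed counts gave a ratio of large to small subunit mRNA in each library. In ish the ratio was 1.5951, 1.5907 and 1.5665 without Dox and 1.5893, 1.5992 and 1.5843 with Dox, which overlapped. In ish2 it was 1.5990, 1.6131 and 1.5852 without Dox and 1.7311, 1.7175 and 1.7082 with Dox. Every ish2 library with Dox stood above every other library of the series. The small subunit sum in ish2 was 1719 ± 26 CPM without Dox and 1650 ± 27.2 CPM with Dox, and the large subunit sum 2750 ± 37.2 and 2836 ± 64.6 CPM (SD, n = 3). A few abundant genes weigh in such sums: in ish2, MRPS7 changed by -48.2 CPM and MRPS27 by -38.0 CPM, and MRPL3 by 31.0 CPM. Without MRPS7 the ish2 ratio was 1.7053 to 1.7327 without Dox and 1.7851 to 1.8084 with Dox, so the groups were still apart. MRPS27 stayed in these sums, and a ratio without both genes was not taken. The MRPS sum changed by -70.6 CPM in ish2, a smaller fall than those of MRPS7 and MRPS27 together. The other MRPS genes therefore did not fall as a sum, and much of the shift in the ratio rests on these 2 genes. In ish, both sums were higher with Dox, from 2694 ± 11 to 2964 ± 13.1 CPM for MRPL and from 1700 ± 12.5 to 1863 ± 1.00 CPM for MRPS.

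**Figure D4:**
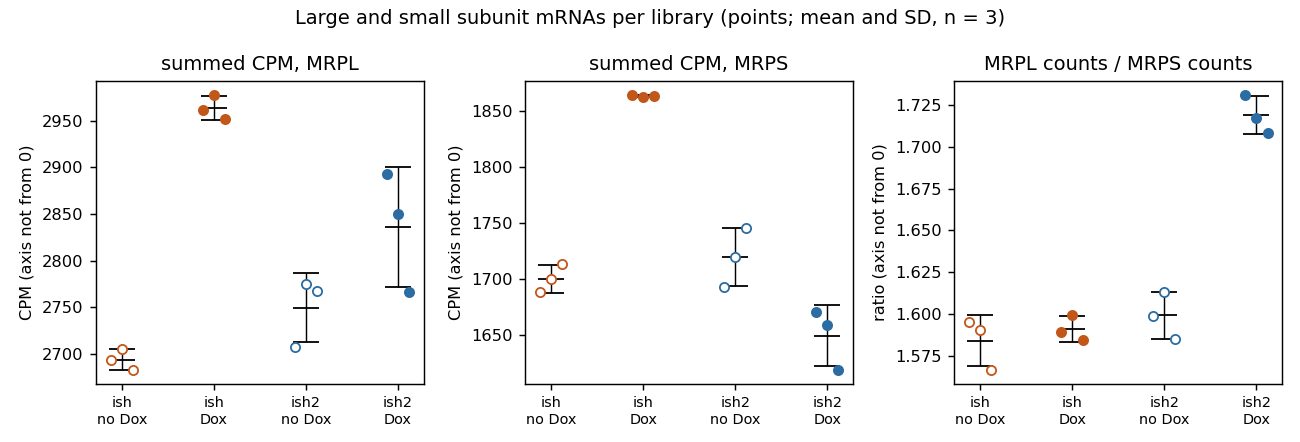
Summed CPM of the MRPL genes (left) and MRPS genes (middle) and the ratio of their counts (right) in each of the 12 libraries, with mean and SD of 3 libraries per group; the axes do not start at 0. Both sums are higher with Dox in ish, and the ratio stands apart in ish2 with Dox, at 1.7082 to 1.7311 against 1.5665 to 1.6131 in the other 9 libraries.

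Proteins with a bacterial counterpart and those added in mitochondria were then set side by side, by the current names of ribosomal proteins. These names place MRPS18A and MRPS18B with the added ones, although both are related to a bacterial protein. In ish, 28 of 45 tested genes with a counterpart rose (62.2%) and 10 fell (22.2%, median 0.20). Of 30 added in mitochondria, 15 rose (50%) and 5 fell (16.7%, median 0.08), against 39.1% higher and 39.5% lower of all genes tested. In ish2, 16 rose (35.6%) and 9 fell (20%) with a counterpart, and 11 rose (36.7%) and 12 fell (40%) among the added ones. The rising shares of both classes were near the 33.9% of all genes tested there, of which 31.1% fell. Within the small subunit, 11 of 15 genes with a counterpart rose in ish (73.3%) and 2 fell (13.3%, median 0.30). MRPS5, MRPS9, MRPS11, MRPS12 and MRPS21 were among those that rose. Of the 10 small subunit genes classed as added, 3 rose (30%) and 2, MRPS18B and MRPS27, fell (20%, median -0.00). In the large subunit, 17 of 30 genes with a counterpart rose (56.7%) and 8 fell (26.7%, median 0.16) in ish. Of 20 classed as added, 12 rose (60%) and 3 fell (15%, median 0.13). The difference between these classes has no test, since genes are not replicates.

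Proteins that form 1 structure did not move as a unit. The stalk, which binds translation factors, is formed by MRPL10, MRPL11, MRPL12, MRPL53 and MRPL54. In ish, MRPL54 (0.49) and MRPL10 (0.08) rose, MRPL11 (-0.42) and MRPL12 (-0.09) fell, and MRPL53 had a value of -0.09 that did not pass the test. In ish2, MRPL10 rose by 0.20 while MRPL11 (-0.15), MRPL12 (-0.14) and MRPL53 (-0.29) fell. At the rim of the exit tunnel, MRPL22 (0.34) and MRPL47 (0.43) rose in ish and MRPL24 fell (-0.10). In ish2, MRPL47 (0.14) and MRPL24 (0.13) rose and MRPL23 fell (-0.27). The call of MRPL23, the tested member with the lowest CPM (4.32 ± 0.248 in ish without Dox), was lost under 3 of 19 settings.

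The 3 human relatives of the single bacterial protein bS18, MRPS18A, MRPS18B and MRPS18C, are thought to occupy different places in the ribosome, MRPS18A in the large subunit. They also differed in their response. MRPS18C, the lowest of them, counted 9.42, 9.70 and 9.19 CPM without Dox and 13.8, 11.9 and 11.5 CPM with Dox in ish, a rise of 0.39 on the log2 scale (SE 0.07, edgeR adjusted p = 9.45e-06). In ish2, MRPS18C had a value of 0.15 that did not pass the test (edgeR adjusted p = 0.104). MRPS18B fell by 0.19 in ish, from 74.0 ± 2.38 to 64.9 ± 1.19 CPM (SD, n = 3), and rose by 0.12 in ish2. MRPS18A fell in both, by 0.09 and 0.12, and its ish call was lost under 6 of 19 settings. MRPS18C shares 78.9% of its transcript length with ABRAXAS1 on the other strand, listed as FAM175A, which had a log2 fold change of -0.12 in ish.

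Without Dox, the lines differed little in these genes. The ish2 line was higher than the ish line in 7 members and lower in 3 by edgeR, and 66 did not pass the test, against 13.7% higher and 12.4% lower of all genes tested. The 4 largest called higher were MRPL35 (log2 difference 0.21), MRPS11 (0.15), MRPS30 (0.14) and MRPL13 (0.13), and those called lower were MRPL36 (-0.21), MRPL55 (-0.16) and MRPL24 (-0.12). MRPL35 counted 53.5, 51.7 and 53.7 CPM in ish and 60.8, 62.4 and 61.3 CPM in ish2, with no overlap. With other size factors (RLE), 14 members were called higher, so the count depends on the scaling.

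The rest of the mitochondrial translation machinery was read from lists drawn up for the purpose. Of all genes tested, 39.1% were higher and 39.5% lower in ish, and 33.9% and 31.1% in ish2. Of 6 ribosome subunits whose symbols are not MRPL or MRPS, 5 rose and none fell in ish, and 2 rose and 3 fell in ish2. GADD45GIP1, a large subunit protein, had log2 fold changes of 0.34 and -0.18, and DAP3, a small subunit protein first known from cell death, had -0.02 (edgeR adjusted p = 0.614) and 0.13. Of 25 assembly and RNA modification factors, 15 rose (60%) and 6 fell (24%) in ish (median 0.26). In ish2, 4 rose (16%) and 8 fell (32%). NGRN, which helps to keep the large ribosomal RNA of mitochondria, rose by 0.74 in ish, from 105 to 175 CPM on average. METTL15, a methyltransferase of the small ribosomal RNA, fell by 1.02 in ish. In ish2, the GTPases NOA1 (-0.68), MTG2 (-0.39) and MTG1 (-0.37) and the small subunit factor RBFA (-0.39) fell.

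Of 17 translation factors, 12 rose (70.6%) and 4 fell (23.5%) in ish (median 0.26). In ish2, 3 rose (17.6%) and 4 fell (23.5%). MTIF3, an initiation factor, rose by 0.91 in ish, the release factor MTRF1 by 0.83 and the elongation factor GFM1 by 0.78. The recycling factor MRRF (-0.51) and OXA1L, which inserts new chains into the inner membrane (-0.38), fell there, and OXA1L fell in ish2 too (-0.29). Of 17 mitochondrial tRNA synthetases, 8 rose (47.1%) and 5 fell (29.4%) in ish. In ish2, 5 rose (29.4%) and 6 fell (35.3%). RARS2 rose by 0.59 in ish.

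Regulators of mitochondrial gene expression went mostly the other way in ish. Of 10 tested, 1 rose (10%) and 7 fell (70%) in ish, and 3 rose (30%) and 5 fell (50%) in ish2. MYC, a transcription factor of cell growth, had log2 fold changes of -0.997 in ish and 0.41 in ish2. TFAM, which packages mitochondrial DNA, had -0.41 and 0.23, and POLRMT, the mitochondrial RNA polymerase, -0.48 and -0.10. NRF1 fell in both (-0.42 and -0.32), as did the ETS factor GABPA (-0.24 and -0.13) and YY1 (-0.23 and -0.09). PPARGC1B, a coactivator, was the riser in ish (0.52). Messenger levels of these factors do not give their activity.

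The proteins of the cytosolic ribosome, for comparison, rose in 65 of 80 tested genes (81.2%) in ish and fell in 4 (5%, median 0.26). In ish2, 22 rose (27.5%) and 20 fell (25%). Without Dox, 71 of these 80 (88.8%) were lower in ish2 than in ish, against 12.4% of all genes tested. Of the 76 mitochondrial ribosomal protein genes, 3 were (3.95%). No test compares these lists.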

How the data were processed

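The authors deposited raw read counts per gene symbol for 12 libraries, per the file header. Per the labels, the mRNA libraries were stranded and read for 75 bases from both ends. Tools in the submitters' processing notes are STAR 2.7.3a, Subread 1.6.3, featureCounts and Trim Galore 0.6.4, with GRCh38 as the build. Annotation and strand setting: not given in the sources used here. Columns headed Sh1 were taken as ish, the only construct other than ish2. The 5 special rows of unassigned reads stayed out of all fits; the share of non-unique alignments was 7.15% to 9.57% of gene counts and special rows together.

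A filter by group (filterByExpr) kept 15206 genes and left out 11279. Libraries were scaled by TMM, and 1 quasi-likelihood fit of 4 group means in edgeR 4.0.16 (R 4.3.3) gave each comparison, with Benjamini-Hochberg adjustment over all genes tested and a call at 0.05. SE is the log2 fold change over the root of F, so it is approximate. The biological coefficient of variation was 2.44%, so small changes pass. On simulated data for the ish comparison, with 15004 genes tested, 47.7% of genes planted at 1.25-fold were called. At 1.5-fold 78.5% and at 2-fold 93.8% were called, and 8 unchanged genes were. The simulated spread was set larger than the fitted one and few genes were planted, so these shares do not carry over to the real libraries. Replicates differed by more than counting noise (chi-square per degree of freedom 1.34 to 4.23). Members and lists were chosen with earlier results of these data known. Members are named by rank: the 8 largest called changes each way per construct, the 6 largest differences each way, opposite calls, the 5 highest and lowest levels, the 4 largest without Dox each way, and a few fixed names. Others named were chosen after their values were seen. Gene positions and lengths are from GENCODE 29. DESeq2 1.42.0, other scalings, no filter, a replicate block and single libraries left out were alternatives.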

Additional observations from a re-analysis of the deposited data

Results flagged for a closer look

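The Dox effect differed between the constructs, by the edgeR test of the difference, in 17 members where ish2 was above ish and 40 where it was below. These are 22.4% and 52.6% of the tested members, against 37.4% and 35.2% of all genes tested. Called either way were 75% of members, near the 72.6% of all genes. Among the named members, ish2 was above ish by 0.62 on the log2 scale for MRPS28, 0.54 for MRPS17, 0.43 for MRPS23, 0.39 for MRPL30, 0.36 for MRPL20, 0.31 for MRPS18B and 0.22 for MRPL24. The ish2 effect minus the ish effect was -1.12 for MRPL27, -1.08 for MRPS6, -0.91 for MRPS7, -0.75 for MRPL41, -0.69 for MRPL34 and -0.59 for MRPS26. It was -0.52 for MRPS22, -0.49 for MRPS33, -0.24 for MRPL38 and -0.22 for MRPL51, which with MRPL27, MRPL34, MRPS6 and MRPS7 rose in ish and fell in ish2.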

How the results depend on the processing

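Across scalings, no filter, DESeq2, single libraries left out and the fit of each construct alone, no called value of a named member in ish or ish2 changed sign. Without Dox, 17 members were called with RLE factors, 14 of them higher, against 10 and 7; DESeq2 called 1 lower, against 3. The median of the MRPS genes in ish2 was -0.046 without the filter and -0.053 with DESeq2, against -0.017. Leaving out each library in turn gave 6 to 14 members called without Dox, 5 to 11 higher and 1 to 3 lower, and an ish2 median of all members of -0.007 to 0.025. The lows of 6 called and 1 lower came without ish replicate 2 or ish2 replicate 3 grown without Dox, the high of 11 without ish2 replicate 3 grown with Dox, and the median of -0.007 without ish2 replicate 1 grown without Dox.

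An alternative chosen after seeing the data left out the 22 members that share over 10% of their transcript length with another gene. Then 8 members were lower in ish, against 15, and 13 in ish2, against 21. Fewer genes were counted, and in both constructs falls were also more frequent among the members left out than among those kept. The ish2 median of the MRPS genes became 0.035 and the MRPL minus MRPS median -0.004, against 0.048, so the median contrast of the subunits in ish2 did not hold without those genes. With a replicate block, 58 members were called in ish and 48 in ish2, against 59 and 49, and the call of MRPS18A in ish was lost. Libraries of like number did not correlate (-0.0798 to 0.0381), which does not show whether they shared a culture or a batch.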
